A study of Bos taurus with 45 samples.

Results

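The first step of a grain transition was examined in the ruminal epithelium of 15 heifers, each biopsied on a diet with 0% grain and again on a diet with 72% grain. The comparison used 30 of the 45 samples of the series, namely all samples taken on these 2 diets, and each 72% grain sample was paired with the 0% grain sample of the same animal by the heifer number in the labels. The animals were Angus-Hereford beef heifers of about 8 months, and all of them went through the same stepwise grain transition. The labels call the diets 3% and 75% grain, and the study's percentages of 0% and 72% are used here. The 0% grain biopsy was taken on day 3 and the 72% grain biopsy on day 15, in both cases after 3 days on the diet, with diets of 40% and 60% grain fed from day 5 to day 12 in between. No heifer stayed on 0% grain over the same days among these samples, so the effect of grain and the effect of 12 days of time, a second biopsy included, cannot be told apart.

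The rumen wall is lined by a stratified squamous epithelium whose papillae absorb the short-chain fatty acids made by microbial fermentation. Grain is fermented faster than forage, so that more acid reaches this surface, and the tissue is known to change its transport, metabolism and turnover over days to weeks when cattle move onto grain. A biopsy of papillae holds the epithelium together with the connective tissue, vessels and immune cells below it. In such bulk samples, fewer cells of a type and less RNA per cell cannot be told apart.

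Expression was measured by sequencing of mRNA and was given as RPM, the reads on a gene for every 1000000 reads on all genes of a sample. RPM is not corrected for gene length, so levels are compared between diets and not between genes. The reads on genes, recovered from the RPM, are given in units of 1000000 reads (M). They ranged from 24.6 to 36.7 M per sample on 0% grain (median 30.8 M). On 72% grain they ranged from 22.5 to 35.3 M (median 28.4 M), so that an RPM of 1 stood for 22.5 to 36.7 recovered reads. Over all 45 samples they averaged 30.4 M, more than the mean number of reads per sample that the study states. This difference was not resolved, so what a recovered read stands for is uncertain. Each sequencing lane held samples of all 3 diets, but the lane of a sample is not given in the sources used here. The files name genes by Ensembl ID only, and none of the IDs could be matched to a symbol through the reference table used here. Names were therefore available for only 18 genes, and the labelled tissue could not be checked against its marker genes. The study pairs 13 of these with an ID directly. For the other 5, namely KLK10, CDSN, CHAC1 and the cytochromes CYP1A1 and CYP1B1, the set of IDs was worked out by elimination, as the study lists only 5 IDs with opposite changes in its pair of heifer groups. Which of these IDs is which gene was then matched by the sizes of the changes, so these 5 names are less certain than the others.

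Of the 24616 genes listed, 11414 had an RPM over 1 in all 15 heifers on at least 1 of the 2 diets and were tested. A gene was called when its adjusted p was under 0.05 and its fold change over 1.5, both from a paired limma fit on log2(RPM + 1), a scale on which the change of low genes is understated. With this rule 176 genes (1.54% of those tested) were called, 158 of them higher on 72% grain (1.38%) and 18 lower (0.158%). Most changes were small. The median fold change was 1.65 among the genes called higher and 1.58 among those called lower, and a fold change over 2 was found for 17 genes called higher and 2 called lower. For 10473 genes (91.8% of those tested) the 95% interval of the change lay inside 1.5-fold in either direction on this log2(RPM + 1) scale. For these genes a larger mean change on that scale lay outside the interval. The median standard error of a log2 fold change was 0.07.

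**Figure D1:**
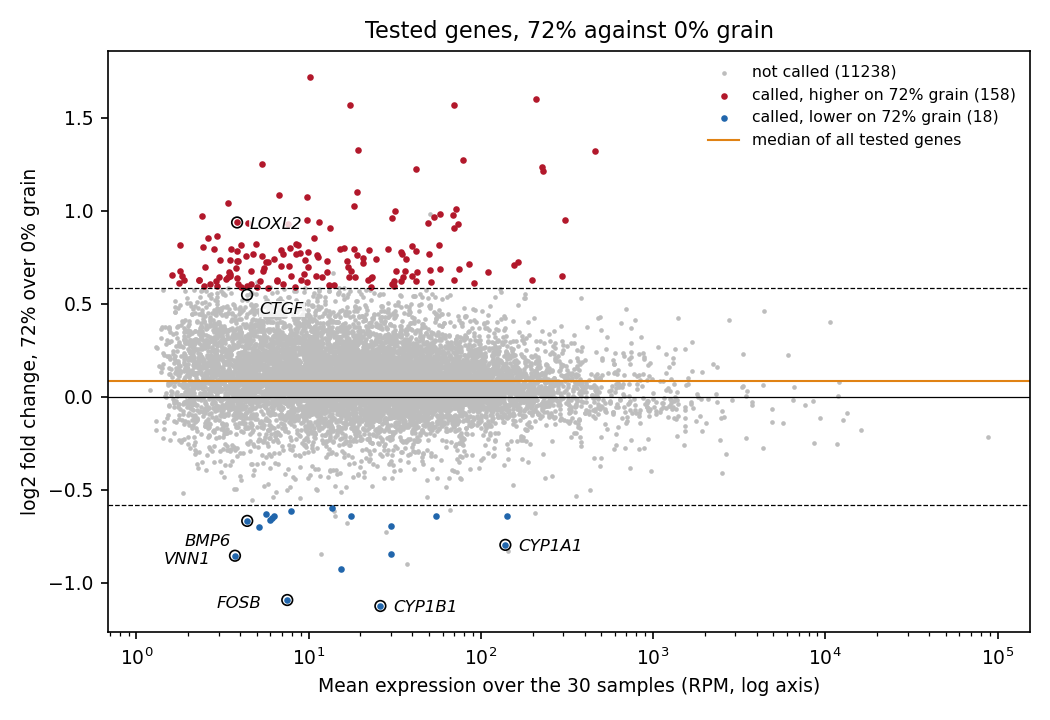
Log2 fold change of each tested gene (72% over 0% grain, positive values are higher on 72% grain) against its mean RPM over the 30 samples on a log axis. Dashed lines mark a fold change of 1.5, the orange line marks the median of all tested genes at 0.08, and circles mark 7 named genes. The 158 genes called higher are spread over mean levels, while no gene over 1000 RPM was called.

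The genes called higher took 3607 RPM on average on 0% grain (2284 to 4942 in the 15 samples) and 6711 RPM on 72% grain (5677 to 9926). The genes called lower went from 671 RPM (461 to 1218) to 371 RPM (280 to 556). The share called higher was largest among low genes, while the share called lower showed no such order. With a mean RPM up to 5, 44 of 1690 genes were called higher and 2 lower, from 5 to 20 RPM 59 of 3704 were called higher and 10 lower, and from 100 to 1000 RPM 10 of 1374 were called higher and 2 lower. None of the 111 genes over 1000 RPM was called, and only 36.9% of them had a positive log2 fold change, against 77.1% of the genes up to 5 RPM. The way a gene entered the test also bears on these counts. Among the 370 genes that were over 1 RPM in all heifers on 72% grain only, 37 were called, all of them higher, and among the 92 genes that passed on 0% grain only 3 were called, all of them lower. A gene that entered in this manner is high on the diet that admitted it, so its direction is not counted as a result. The 10952 genes that passed on both diets held 121 of the genes called higher and 15 of those called lower.

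How many genes were called in each direction depended on how the samples were scaled. On the RPM scale, an adjusted p under 0.05 by itself was reached by 2817 genes with higher values on 72% grain (24.7%) and by 355 genes with lower values (3.11%). After scaling by TMM, which sets the bulk of the genes equal between samples, the same rule gave 1162 higher and 1242 lower, and scaling by median of ratios gave 1223 and 1172. The median log2 fold change of all tested genes was 0.08 on the RPM scale, -0.01 after TMM and -0.002 after median of ratios. With the fold change minimum, the split was 158 higher and 18 lower on the RPM scale, 101 and 26 after TMM, and 104 and 25 after median of ratios. Among only the genes that passed on both diets, it was 121 and 15 on the RPM scale, 74 and 23 after TMM, and 77 and 22 after median of ratios, where genes called higher made up 76.3% and 77.8% of the calls after the scalings. All 18 genes called lower were still called after both scalings, and of the 158 genes called higher 101 were still called after TMM and 104 after median of ratios.

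The share taken by the highest genes also differed between the diets. The 10 genes with the highest mean took 20.4% ± 1.44 of the RPM on 0% grain against 18.4% ± 1.17 on 72% grain (SD, n = 15 each), and the share was lower on 72% grain in 13 of 15 heifers. The RPM of a sample sum to 1000000, so a smaller share of these genes leaves a larger share to the rest. The highest gene alone had 94878 ± 17430 RPM on 0% grain against 80833 ± 9060 RPM on 72% grain (SD, n = 15 each). It was lower in 12 of 15 heifers, but with a log2 fold change of -0.22 and an adjusted p of 0.179 it did not pass the test. What part of the many small increases on the RPM scale goes with these genes was not tested beyond the scalings given here.

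**Figure D2:**
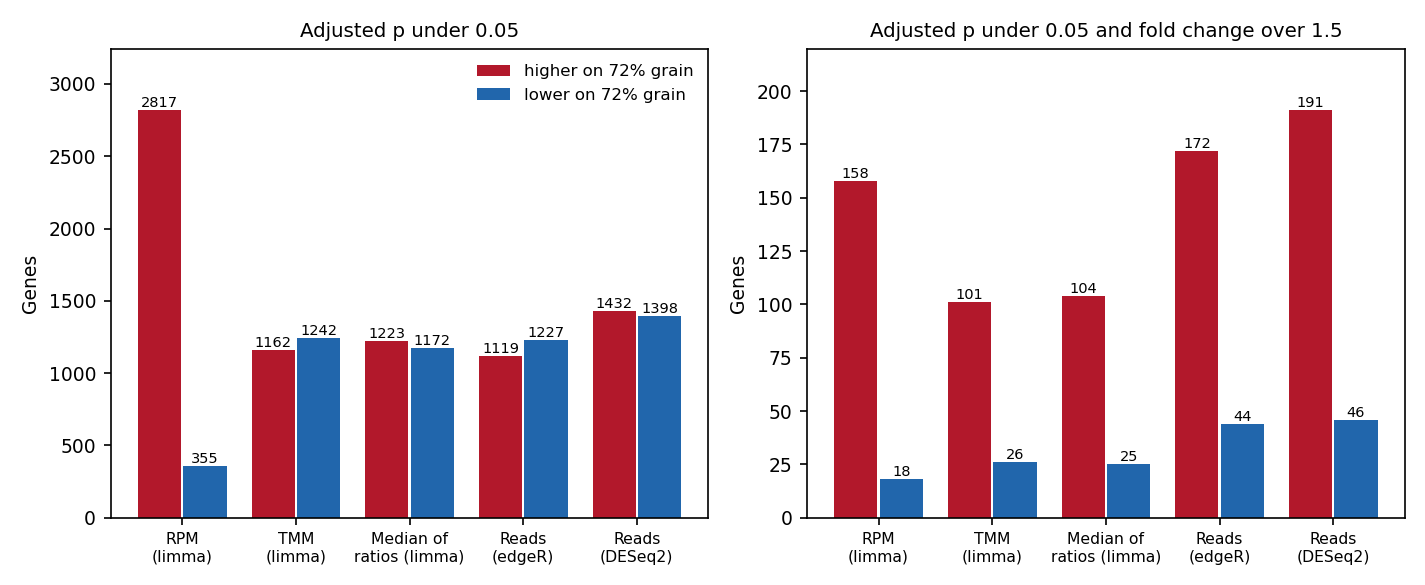
Number of genes higher (red) and lower (blue) on 72% grain by scaling and test, at an adjusted p under 0.05 alone (left) and with a fold change over 1.5 added (right). Both panels start at 0. On the left, 2817 against 355 genes on the RPM scale became 1162 against 1242 after TMM, and on the right genes called higher outnumbered those called lower in all 5 analyses. The bars include genes that entered through a single diet. Among the genes that passed on both diets, the right-hand counts were 121 and 15 on the RPM scale, 74 and 23 after TMM, and 77 and 22 after median of ratios. They were 104 and 34 with edgeR and 111 and 35 with DESeq2.

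A few changes were found in every heifer. Of all tested genes, 225 were higher on 72% grain in 15 of 15 heifers (1.97%) and 14 were lower in 15 of 15 (0.123%). These counts and those below are on the RPM scale, on which 73.2% of the tested genes had a positive log2 fold change, against 47.9% after TMM. They were not repeated after the scalings, and they include genes that entered through a single diet. Among the genes called higher, 42 rose in all heifers and 104 in at least 14, and none rose in fewer than 11. Among the genes called lower, 3 fell in all heifers and 7 in at least 14. The values of the 2 diets did not overlap for 2 genes, both higher on 72% grain (0.0175% of those tested). The ID with the largest called increase, ENSBTAG00000014906, had an RPM of 1.08, 4.25 and 13.6 (lowest, median and highest) on 0% grain and 7.41, 16.4 and 27.7 on 72% grain. It rose in 15 of 15 heifers, by a log2 fold change of 1.72 ± 0.20 (SE, adjusted p = 6.2e-05), and 11 of the 72% grain values lay above all 0% grain values. ENSBTAG00000037526 had 35.0, 72.8 and 275 RPM on 0% grain against 33.5, 249 and 1223 RPM on 72% grain. It rose in 14 of 15 heifers, by 1.60 ± 0.24 on the log2 scale (adjusted p = 2.4e-04). On 72% grain its values ran over a far wider range than on 0% grain, and 7 of them exceeded every 0% grain value.

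Among the genes called lower, 2 IDs with the largest fall in at least 14 heifers fell in all 15. ENSBTAG00000003994 had 24.4, 35.1 and 80.9 RPM on 0% grain against 11.8, 20.5 and 34.9 RPM on 72% grain, and fell by 0.85 ± 0.10 on the log2 scale (adjusted p = 8.0e-05). ENSBTAG00000011305 had 23.2, 37.3 and 56.0 RPM on 0% grain against 16.6, 21.9 and 28.4 RPM on 72% grain, and fell by 0.69 ± 0.08 (adjusted p = 7.7e-05). In both, the diets overlapped, but every 72% grain value lay under the 0% grain median. The 2 genes without overlap both lay at moderate levels. For the gene with the smaller spread, the RPM ran from 38.4 to 85.8 on 0% grain and from 89.9 to 120 on 72% grain, and for the other from 23.4 to 58.1 and from 58.8 to 104.

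The 18 named genes were singled out by the study on these samples, 13 for passing an RPM of 1 in all heifers on a single diet and 5 for their change between 72% and 89% grain, so their directions are not independent evidence. In all, 10 of them passed the filter used here, but only CYP1A1 and CYP1B1 did so on both diets. FOSB, VNN1, BMP6 and BOLA-A entered the test through 0% grain only, and LOXL2, CTGF, KLK10 and C-X-C motif chemokine 6 through 72% grain only. For these 8 the values below are a description, and their direction and p are not counted as a result.

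CYP1A1 and CYP1B1 encode cytochrome P450 enzymes that oxidise aromatic compounds, plant compounds among them, and both are textbook targets of the aryl hydrocarbon receptor. CYP1B1 (ENSBTAG00000010531) had the largest fall of all genes called lower. Its RPM was 14.2, 33.2 and 94.1 (lowest, median and highest) on 0% grain and 4.97, 11.6 and 50.3 on 72% grain. It fell in 13 of 15 heifers, by 1.13 ± 0.18 on the log2 scale (adjusted p = 3.7e-04), and 10 of the 72% grain values lay under every 0% grain value. Heifers 236 and 362 were the exceptions. CYP1A1 (ENSBTAG00000001021) had 54.4, 184 and 423 RPM on 0% grain against 54.4, 88.7 and 237 RPM on 72% grain, so that the diets overlapped over much of their range. It fell in 12 of 15 heifers, by 0.80 ± 0.21 (adjusted p = 0.0101). The 3 heifers in which it was higher on 72% grain, 172, 236 and 286, had the lowest CYP1A1 values on 0% grain (54.4, 80.0 and 62.7 RPM). Each change is taken from the 0% grain value, so a low start by itself favours a rise and a high start a fall. Starting values given here and for the genes below are a description, and whether they bear on the change was not tested. In heifer 236 it went from 80.0 to 237 RPM, the highest value on 72% grain, and this heifer also had the highest CYP1B1 value on that diet. On 89% grain, the median was 79.1 RPM for CYP1A1 and 15.6 RPM for CYP1B1.

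FOSB (ENSBTAG00000008182), a subunit of the AP-1 transcription factor and an immediate early gene, had 1.17, 8.86 and 35.0 RPM on 0% grain against 0.850, 4.30 and 10.5 RPM on 72% grain. Having entered the test through 0% grain, where it is high, it had a log2 fold change of -1.09 ± 0.24 (adjusted p = 0.0036) and was lower in 12 of 15 heifers. The diets overlapped, with 7 of the 0% grain values above every 72% grain value. In the fit of all 45 samples the same change had an adjusted p of 0.060 and was not called, while FOSB on 89% grain ran from 0.548 to 66.0 RPM.

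VNN1 (ENSBTAG00000015094) encodes vanin 1, a pantetheinase that releases pantothenic acid and cysteamine. It had 1.32, 4.39 and 13.7 RPM on 0% grain against 0.533, 1.89 and 6.71 RPM on 72% grain. The log2 fold change was -0.86 ± 0.19 (adjusted p = 0.0030), with lower values in 12 of 15 heifers, and in the 3 others the values were close on both diets, with a largest increase of 0.16 on the log2 scale. BMP6 (ENSBTAG00000019234), a ligand of the TGF-beta family, had 1.45, 4.81 and 15.7 RPM on 0% grain against 0.963, 3.11 and 5.74 RPM on 72% grain. The log2 fold change was -0.67 ± 0.22 (adjusted p = 0.031), also with lower values in 12 of 15 heifers. Both entered through 0% grain only. The call of BMP6 was lost with no filter on low values (adjusted p = 0.067) and without some single animals. Without heifer 178, 258, 262 or 362, in turn, the adjusted p lay between 0.052 and 0.059, and without heifer 182, in which BMP6 fell the most, the log2 fold change was -0.51 with an adjusted p of 0.049, under the fold change minimum. The median on 89% grain was 0.984 RPM for VNN1 and 1.97 RPM for BMP6.

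**Figure D3:**
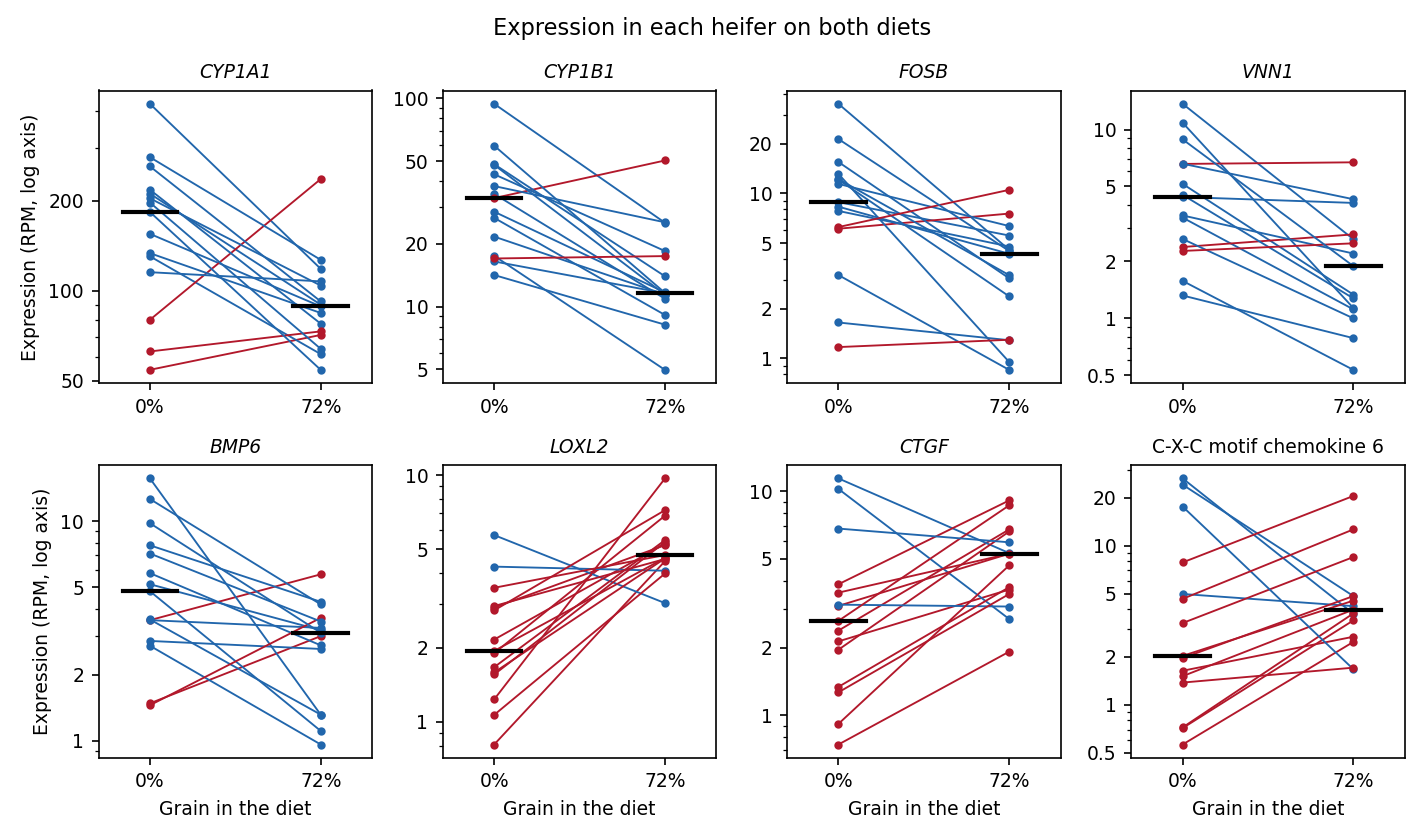
Expression (RPM, log axis) of 8 named genes in each of the 15 heifers on 0% and 72% grain. Each line is a heifer, red where the value was higher on 72% grain and blue where it was lower, and black bars are medians. CYP1B1 was lower in 13 of 15 heifers and LOXL2 higher in 13 of 15, while C-X-C motif chemokine 6 was higher in 11 and much lower in 3 heifers that started high.

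LOXL2 and CTGF both act on connective tissue. LOXL2 (ENSBTAG00000006214), a lysyl oxidase that cross-links collagen and elastin, had 0.809, 1.94 and 5.72 RPM on 0% grain against 3.03, 4.74 and 9.70 RPM on 72% grain. It entered through 72% grain only, and had a log2 fold change of 0.94 ± 0.17 (adjusted p = 7.8e-04) with higher values in 13 of 15 heifers, and 12 of the 0% grain values lay under every 72% grain value. Heifers 182 and 236, in which it was lower on 72% grain, had the highest values on 0% grain. CTGF (ENSBTAG00000006367), a matricellular protein that responds to TGF-beta, had 0.741, 2.64 and 11.4 RPM on 0% grain against 1.93, 5.27 and 9.12 RPM on 72% grain. The log2 fold change of 0.55 ± 0.21 did not pass the test (adjusted p = 0.055, 95% interval 0.12 to 0.98), with higher values in 11 of 15 heifers. Without heifer 182, 236 or 362, in turn, CTGF was called, with a log2 fold change of 0.70, 0.66 or 0.60 and an adjusted p of 0.0059, 0.019 or 0.048. It was also called with a pseudocount of 0.1 (0.75, adjusted p = 0.038) or 0.5 (0.64, adjusted p = 0.045), and by DESeq2 on recovered reads (0.72, adjusted p = 0.017), but not by edgeR (0.67, adjusted p = 0.080). Heifers 182, 236 and 362 were among the 4 in which CTGF was lower on 72% grain, so leaving any of them out raises its mean change. CTGF also entered through 72% grain only, and none of these calls is counted as a result. The median on 89% grain was 3.23 RPM for LOXL2 and 4.76 RPM for CTGF.

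For the immune genes named, no change was called. BOLA-A (ENSBTAG00000005182), a class I heavy chain of the major histocompatibility complex, had 1.52, 8.93 and 15.2 RPM on 0% grain against 0.963, 8.50 and 12.2 RPM on 72% grain. The log2 fold change was -0.11 ± 0.09 (adjusted p = 0.339), with a 95% interval of -0.30 to 0.07. On the log2(RPM + 1) scale this interval holds no change of 1.5-fold. Genes of this family are alike in sequence and differ between animals, so reads may be shared between copies and the value is uncertain. The C-X-C motif chemokine 6 gene (ENSBTAG00000009812), whose product attracts neutrophils, had 0.563, 2.03 and 26.4 RPM on 0% grain against 1.67, 3.97 and 20.5 RPM on 72% grain. The log2 fold change of 0.24 ± 0.33 had a 95% interval of -0.46 to 0.93 (adjusted p = 0.62). It was higher on 72% grain in 11 heifers.

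KLK10 (ENSBTAG00000015129), a kallikrein-related secreted serine peptidase, showed the widest spread among the named genes tested. On 0% grain its RPM was 0.276, 1.71 and 89.3, and after the step to 72% grain 1.55, 6.99 and 88.0. The median was higher on 72% grain while the mean was lower (14.8 and 12.8 RPM), and the log2 fold change of 0.66 ± 0.54 had a 95% interval of -0.46 to 1.79 (adjusted p = 0.37). The 3 heifers with the highest values on 0% grain, 172, 170 and 294, went from 89.3, 61.0 and 41.0 RPM to 3.20, 5.00 and 6.57 RPM, while 11 of 15 heifers were higher on 72% grain. The same 3 heifers were among the 4 in which C-X-C motif chemokine 6 was lower on 72% grain. Without heifers 170, 172 and 262, whose 0% grain samples lay farthest from the median profile of that diet over all tested genes, KLK10 had a log2 fold change of 1.40 and an adjusted p of 0.029. These 3 heifers were chosen after the data were seen, and KLK10 fell the most in 172 and 170, so leaving them out raises its change. KLK10 also entered through 72% grain only, and this call is not counted as a result. The other named genes tested stayed on the same side of the rule without these 3 heifers, and the counts were then 140 higher and 17 lower.

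The other 8 named genes had an RPM of 1 or less in some heifers on both diets and did not pass the filter. They were tested among the 12333 genes with a mean RPM over 1, of which 201 were called (1.63%). CDSN (ENSBTAG00000021721) encodes corneodesmosin, which holds the outermost cells of a cornified epithelium together. It had 0.421, 6.10 and 84.3 RPM on 0% grain against 0.991, 17.0 and 73.1 RPM on 72% grain, and was called with a log2 fold change of 1.01 ± 0.34 (adjusted p = 0.034), higher in 11 of 15 heifers. Without any filter on low values, where more genes were tested, its adjusted p was 0.070. ABCG1 (ENSBTAG00000021272), which exports cholesterol from cells, had 0.856, 2.88 and 7.31 RPM on 0% grain against 0.488, 5.94 and 9.39 RPM on 72% grain. Its adjusted p was 0.028, but its log2 fold change of 0.55 ± 0.18 lay under the minimum, and it was higher in 13 of 15 heifers. Without heifer 172 it passed both filter and rule (log2 fold change 0.59, adjusted p = 0.029), as it did without heifers 170, 172 and 262 together (0.80, adjusted p = 0.0045). ABCG1 was lower on 72% grain only in heifers 170 and 262, and in heifer 172 it rose by only 0.07. Leaving these animals out therefore raises its mean change, and neither call is counted as a result. CXorf57 (ENSBTAG00000003668) had a log2 fold change of 0.56 ± 0.17 (adjusted p = 0.025), also under the minimum. Without heifer 170 it was called (0.61, adjusted p = 0.020), but not without heifers 170, 172 and 262 together (0.56, adjusted p = 0.061). Heifer 170 was among the 3 in which CXorf57 was lower on 72% grain, so this call is not counted as a result either. A gene named only as an uncharacterized protein was called higher, by 0.71 ± 0.19 (adjusted p = 0.0114), with medians of 3.39 and 6.76 RPM.

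The remaining 4 did not pass the test. CHAC1 (ENSBTAG00000010371), which degrades glutathione and is induced by the unfolded protein response, had medians of 1.43 and 3.16 RPM and a 95% interval of the log2 fold change from -0.33 to 1.22. RASL1A (ENSBTAG00000005244), a Ras-like small GTPase, had an interval of -0.24 to 0.74. LIFR (ENSBTAG00000010423), the receptor of leukemia inhibitory factor, had an interval of -0.20 to 0.44, and CDHR2 (ENSBTAG00000025340), a cadherin-related protein of microvilli, had an interval of -0.54 to 0.34. Only for LIFR and CDHR2 does the interval leave out a change of 1.5-fold in both directions on the log2(RPM + 1) scale. That scale understates changes at low levels, so a 1.5-fold change of the RPM itself is not left out by this.

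Heifers differed widely in how far their profile moved. Between 4.02% (heifer 314) and 21.1% (heifer 352) of the tested genes differed by more than 1.5-fold between the diets within an animal, with a median of 9.44% over the 15 heifers. Heifer 352 stood apart in direction as well. In this animal 19.4% of genes were more than 1.5-fold higher and 1.77% more than 1.5-fold lower on 72% grain, its median log2 change was 0.26, and its 10 highest genes fell from 22.8% to 16.6% of the RPM. Heifers 236 and 286 had the lowest median changes, of -0.02 each, and were the only 2 animals in which the share of the 10 highest genes was not lower on 72% grain (19.3% and 19.5% in heifer 236, 19.2% and 20.0% in heifer 286). For the median gene, the heifer accounted for 54.2% of the sum of squares of log2(RPM + 1) over the 30 samples and the diet for 7.11%. For the called genes these values were 33.1% and 41.9%, where the diet's part is large by the choice of the genes. These shares are not corrected for the number of levels, which is 15 for the heifer and 2 for the diet. A term with more levels takes a larger share even with no effect, so the shares do not rank the heifer over the diet.

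To see in which animals the changes were present, each heifer was compared with the genes called without it. In the median heifer, 92.6% of the genes called higher in the other 14 were higher on 72% grain, against 60.6% of all tested genes in the median heifer. In 12 heifers this share was 86.9% or more. It was lower in heifers 182 (64.1%), 286 (65.0%) and 236 (73.8%), where 56.4%, 46.9% and 45.9% of all tested genes were higher. Of the genes called lower in the other 14, a median of 83.3% were lower in the heifer left out, from 47.6% in heifer 182 to 100% in heifer 294. Each of these lists held only 14 to 21 genes. These shares are a description of the animals, and no test was made on them.

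**Figure D4:**
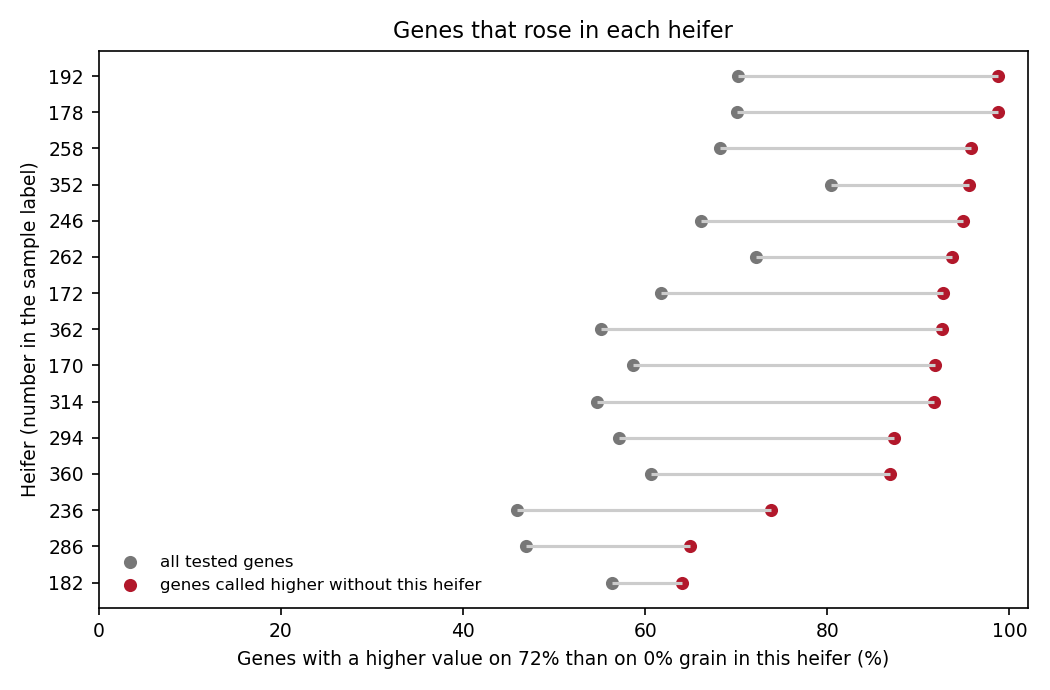
Share of genes with a higher value on 72% than on 0% grain in each heifer (percent), for all tested genes (grey) and for the genes called higher in the fit without that heifer (red). The red points lie at 86.9% or more in 12 heifers and at 64.1% to 73.8% in heifers 182, 286 and 236.

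The 3 heifers with small changes did not all differ from the others in the same sample. Over the genes called higher without it, heifer 182 had a mean log2(RPM + 1) on 0% grain that was 0.45 above the mean of the other 14, and heifer 236 was 0.42 above. Each ranked highest of the 15 over its list on 0% grain, while on 72% grain they lay 0.11 and 0.13 under the others. Heifer 286 was 0.24 above the others on 0% grain and 0.27 under them on 72% grain, the lowest of the 15. A low place on 72% grain was not particular to small changes. Heifer 294 also ranked lowest over its own list on 72% grain, 0.20 under the others, with a mean change of 0.75 against a median of 0.70. At the other end, heifer 352 was 0.23 under the others on 0% grain and 0.53 above them on 72% grain. Since the genes were chosen for a difference in the other 14 animals, a heifer left out tends to lie above them on 0% grain and under them on 72% grain, and the median heifer lay 0.07 above and 0.10 under. For most tested genes the heifers also varied less on 72% grain. The SD of log2(RPM + 1) over the 15 animals was smaller on 72% grain for 63.5% of all tested genes, and for 115 of the 158 genes called higher. Of these, 370 of all tested genes and 37 of the 158 entered through 72% grain only, where the filter itself leaves out low values on that diet. The spread was not counted separately for the genes that passed on both diets. It was also not counted without heifers 170, 172 and 262, whose 0% grain samples lay farthest from the median profile of that diet.

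**Figure D5:**
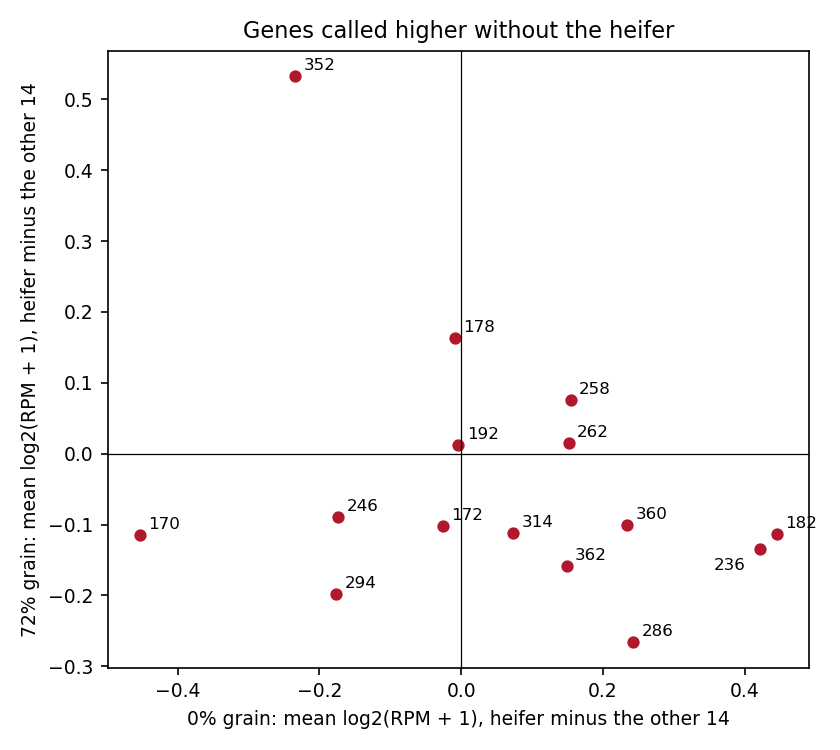
Position of each heifer relative to the other 14, as the difference in mean log2(RPM + 1) over the genes called higher without it, on 0% grain (horizontal axis) and on 72% grain (vertical axis). Heifers 182 and 236 lie at the right, 0.45 and 0.42 above the others on 0% grain, heifer 286 lies lowest, and heifer 352 lies 0.53 above the others on 72% grain.

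CYP1A1 and CYP1B1 were both lower on 72% grain in 11 of 15 heifers, among them heifer 182, in which 47.6% of the genes called lower in the other 14 were lower, and heifer 352, which had the most genes past 1.5-fold. In heifer 236 both were higher on 72% grain.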

How the data were processed

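Papillae from the ventral sac of the rumen were biopsied and RNA was extracted from their powder. The authors sequenced mRNA libraries, demultiplexed them with CASAVA 1.8, aligned the reads to the bovine genome (UMD 3.1) with TopHat2 2.0.10, counted reads on Ensembl genes with HTSeq, and deposited RPM for each gene and sample. These summed to 1000000 in every sample, so the total was the reads on genes. Whole reads were recovered from the RPM of all samples, with 100% of the values within 0.01 of a whole read, and gave the depth. Reads counted by gene cannot separate overlapping genes or near-identical copies.

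Genes with RPM over 1 in all 15 heifers on either diet entered a limma fit (version 3.58.1, R 4.3.3) of log2(RPM + 1), a pseudocount of 1, with a variance trend and the heifer as a fixed block, two-sided, and p-values were adjusted by Benjamini-Hochberg over all tested genes. The pairing came from the animal. Deviations from the diet means had a median correlation across genes of 0.39 within a heifer and -0.03 between heifers, and 11 of 15 samples were most like that of the same heifer. The study used edgeR, which needs counts, and names no block for the animal. As alternatives, edgeR 4.0.16 and DESeq2 1.42.0 were run on the recovered reads, with the heifer as a block and the filter used here. Neither run repeats the study's own test. The closing values also cover other scalings, filters, pseudocounts, minimums for the fold change, and fits without each heifer. The fit was also run on simulated data with known rises and falls in equal number and no other change between the diets. That run cannot bear on how the counts depend on scaling, and its outcome is not given here.

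IDs with no symbol were named by the largest log2 fold change among called genes that had 1 direction in at least 14 of 15 heifers, up to 2 in each direction, and the 18 genes with a name were given whatever their result. The genes in the diet plots and the heifers described singly were picked after their values were seen. Gene lists by pathway and cell type markers could not be applied without symbols, and no sequences or coordinates are given because no genome was used here. The members and lists were chosen with earlier results of these data known. Of 435 pairs of samples, none agreed within sampling noise (smallest chi-square per degree of freedom 23.57). Plots used matplotlib 3.10.9 in Python 3.11.15.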

Additional observations from a re-analysis of the deposited data

How the results depend on the processing

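On the RPM scale, 158 genes were higher and 18 lower. Scaling changed the number called higher to 101 (TMM) and 104 (median of ratios). On recovered reads, 172 genes were called higher and 44 lower by edgeR, and 191 and 46 by DESeq2. Among the genes that passed on both diets, the counts were 104 and 34 by edgeR and 111 and 35 by DESeq2. With adjusted p alone, which gave 2817 higher and 355 lower (3172 in all), the counts higher and lower were 1162 and 1242 after TMM, 1223 and 1172 after median of ratios, 1119 and 1227 with edgeR, and 1432 and 1398 with DESeq2. A pseudocount of 0.1 called 316 genes, 293 of them higher. A fold change over 2 left 19 genes, 17 higher and 2 lower. Without the heifers as a replicate block, adjusted p alone gave 216 genes lower, and the calls with the fold change minimum were 154 higher and 15 lower. The block changed no call of a named gene. Without heifers 170, 172 and 262, chosen after seeing the data, adjusted p alone gave 1746 genes higher.

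With each heifer left out in turn, the calls ranged from 153 (without heifer 352) to 214 (without heifer 286), with 134 to 197 higher and 14 to 21 lower, and adjusted p alone gave 2326 to 3110 higher and 283 to 399 lower. The direction of no named gene changed under any alternative. The 8 named genes outside the filter were recomputed only where an alternative let them in. Depth limits genes near an RPM of 1, where 22.5 to 36.7 recovered reads stand behind a value. The cause of the change with scaling was not tested beyond the values given above.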
